A study of Mus musculus with 70 samples.

Results

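The nuclear genes for the subunits of the oxidative phosphorylation complexes were followed through early innate lymphoid cell (ILC) development in mouse bone marrow. Members were chosen by gene symbol alone: protein-coding genes named as subunits of complex I (Nduf, with the letters a, b, c, s or v), complex II (Sdha to Sdhd), complex III (Uqcr), complex IV (Cox4 to Cox8) and ATP synthase (Atp5). The assembly factors named Ndufaf and the muscle isoform Cox6a2 were left out. Of 27179 genes in the 2 count tables, 86 were members: 40 of complex I, 4 of complex II, 8 of complex III, 17 of complex IV and 17 of ATP synthase, also called complex V. Of these, 76 had enough counts to be tested (37, 3, 7, 13 and 16 in that order) and 10 did not.

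Oxidative phosphorylation takes place at the inner mitochondrial membrane. Complexes I and II pass electrons from NADH and succinate to ubiquinone, complex III passes them on to cytochrome c, and complex IV, cytochrome c oxidase, hands them to oxygen. Complexes I, III and IV pump protons, and ATP synthase uses the gradient to make ATP. Most subunits are encoded in the nucleus and a smaller set of core subunits in the mitochondrial genome, so the RNAs of both genomes are needed for a full set of complexes. Resting lymphoid precursors and cytokine-producing ILCs are known to differ in how they use mitochondria and glycolysis.

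The libraries were each made by CEL-seq, a 3′-end method, from 100 cells sorted from bone marrow, and 47 entered the comparisons. The wild-type (WT) groups were CLP (common lymphoid progenitor, 8 libraries), a4b7_CLP (CLP that express the integrin alpha4beta7, 5), CILP (common innate lymphoid progenitor, 7), ILCP (3) and ILC2P (group 2 ILC progenitor, 8). Mice lacking the transcription factor TCF-1 (Tcf7-/-, labelled TCF7) gave CLP (5), CILP (4) and ILC2P (2). Mice lacking the transcription inhibitor Id2 (Id2-/-) gave CLP (2), CILP (2) and ILCP (1). The labels give no strain, age or animal for a library, so p-values measure the spread between libraries, which may be partly technical. The labels also name 2 batches, with 22 libraries in batch 1 and 25 in batch 2. The Id2-/- libraries were all in batch 1, and the TCF7 ILC2P libraries were both in batch 2.

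The RefSeq promoter table held a window for 70 of the 86 members, from 250 bases before to 50 after the annotated start, on GRCm38.p6. The windows below belong to 6 members whose levels differed between groups. Capitals mark matches, on either strand, to the NRF1 core, the ETS and GABP core CCGGAAG, the YY1 motif or the GC box GGGCGG, none of which lies within another.
Atp5k (chr5:108434350-108434649, minus strand): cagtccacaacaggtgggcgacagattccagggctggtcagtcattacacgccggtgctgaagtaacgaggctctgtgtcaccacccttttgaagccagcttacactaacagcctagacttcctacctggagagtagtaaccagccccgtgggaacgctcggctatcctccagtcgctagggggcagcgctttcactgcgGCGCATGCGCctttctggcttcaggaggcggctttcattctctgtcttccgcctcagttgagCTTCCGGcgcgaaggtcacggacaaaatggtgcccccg
Cox6a1 (chr5:115348909-115349208, minus strand): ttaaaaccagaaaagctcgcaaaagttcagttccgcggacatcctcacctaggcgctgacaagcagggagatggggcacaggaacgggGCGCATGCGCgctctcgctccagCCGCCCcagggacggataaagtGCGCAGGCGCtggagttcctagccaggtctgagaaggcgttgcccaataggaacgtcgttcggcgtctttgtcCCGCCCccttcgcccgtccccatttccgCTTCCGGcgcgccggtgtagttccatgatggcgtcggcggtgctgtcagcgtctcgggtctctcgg
Atp5md (chr19:47090598-47090897, minus strand): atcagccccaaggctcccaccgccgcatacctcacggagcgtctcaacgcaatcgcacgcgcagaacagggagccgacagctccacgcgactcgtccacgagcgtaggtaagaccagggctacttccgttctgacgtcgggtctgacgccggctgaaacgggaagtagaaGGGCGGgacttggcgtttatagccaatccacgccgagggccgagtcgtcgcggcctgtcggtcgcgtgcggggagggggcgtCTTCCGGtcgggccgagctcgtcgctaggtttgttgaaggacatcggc
Ndufa9 (chr6:126849095-126849394, minus strand): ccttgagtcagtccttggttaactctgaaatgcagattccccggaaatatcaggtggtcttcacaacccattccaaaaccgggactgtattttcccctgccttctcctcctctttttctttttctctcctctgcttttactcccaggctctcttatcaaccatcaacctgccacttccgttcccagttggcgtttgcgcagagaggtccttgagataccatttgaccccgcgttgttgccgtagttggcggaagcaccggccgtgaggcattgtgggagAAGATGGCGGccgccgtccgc
Cox6b2 (chr7:4753045-4753344, minus strand): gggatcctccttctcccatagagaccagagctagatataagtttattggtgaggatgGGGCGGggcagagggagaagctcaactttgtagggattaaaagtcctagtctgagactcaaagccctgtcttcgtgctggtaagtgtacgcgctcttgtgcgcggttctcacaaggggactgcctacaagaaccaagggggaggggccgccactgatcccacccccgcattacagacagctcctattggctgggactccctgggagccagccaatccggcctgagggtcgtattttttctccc
Cox7b (chrX:106015450-106015749, plus strand): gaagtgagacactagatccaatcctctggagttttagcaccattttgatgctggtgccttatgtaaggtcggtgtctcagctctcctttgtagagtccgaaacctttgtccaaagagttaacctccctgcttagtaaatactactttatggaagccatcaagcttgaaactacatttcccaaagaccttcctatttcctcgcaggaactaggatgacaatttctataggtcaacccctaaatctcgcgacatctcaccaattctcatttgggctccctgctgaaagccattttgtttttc
Atp5k and Cox6a1 each held the NRF1 and ETS cores, as did Atp5h, which differed in no comparison of groups, and Sdhd, which was not tested. Ndufa9 held the YY1 motif, Atp5md an ETS core and a GC box, Cox6b2 a GC box, and Cox7b none of the 4. Other members with a window also differed between groups and are not shown: Atp5b, Cox5a and Ndufv3 held a GC box alone, and Ndufc1 none of the motifs. A link between the motifs and the levels was not tested.

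Across the members, the NRF1 core was found in 17 of 70 (24.3%), against 5.19% of the 27025 genes with a window. The ETS and GABP core was also in 17 of 70 (24.3%), against 9.93% of genes. The YY1 motif was in 5 members (7.14%), against 0.995%, and the GC box in 29 (41.4%), against 38.2%. Counted over windows, the shares were 24.0% against 4.60%, 22.7% against 8.86%, 6.67% against 0.852% and 40% against 35.7%. The member windows also had more G and C (median 57.3% against 52.7%) and more CpG dinucleotides (median 19 against 7), and the part of base composition in these shares was not tested. At least 1 of the 4 motifs was present in 49 members and none in 21. These are matches of letters, and binding was not measured.

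Total counts ran from 19322 to 624668 per library (median 134985), and between 33 and 78 members (median 69) had a count. WT ILC2P was the shallowest of the larger groups, at 19322 to 80873 counts (median 66813), against a median of 149467 in WT CILP and 140518 in WT CLP. The CLP marker list (5 genes) took 0.879% to 1.72% of counts in WT CLP and at most 0.301% in WT ILC2P, and the ILC2P list (5 genes) took 0.388% to 1.29% in WT ILC2P and at most 0.0566% in WT CLP. Id2, which ILC2P express, had no count in 3 of 8 WT ILC2P libraries. Tcf7 was at 0 to 62.6 CPM (a gene's count over the library's scaled total) in the TCF7 CILP libraries and 165 to 777 CPM in WT CILP, without overlap, while in CLP and ILC2P the WT median was itself 0 CPM. The 2 TCF7 ILC2P libraries had Tcf7 at 0 and 52.7 CPM, against 0 to 61.3 CPM in WT ILC2P. These ranges overlap, so the loss of Tcf7 could not be checked in ILC2P. Id2 was at 26.8 and 114 CPM in Id2-/- CILP, against 79.4 to 2265 CPM in WT CILP, which overlap. Libraries that stood apart were TCF7 ILC2P replicate 1, with 19.8% of counts from 5 plasma and B cell genes (at most 0.0362% in any other modelled library), and WT ILC2P replicate 1, the shallowest library, with 23.6% of counts from the mitochondrial genome. Calls in ILC2P are also given without them. Erythroid marker counts reached 1.19% in 1 WT ILCP library and 1.81% in the Id2-/- ILCP library. In sorted populations of this kind, fewer cells of a type and less RNA per cell cannot be told apart.

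Together the members held 133108 counts, and in wild-type libraries the 10 most abundant held 40.6% of the module's counts. Levels are in CPM without a length correction, since a 3′ method counts each transcript near its end. Of the 86 members, 17 had counts in all 47 libraries. The most abundant came from ATP synthase and complex IV. Among ATP synthase genes, Atp5a1 (the alpha subunit) averaged 936 ± 440 CPM (SD, n = 31 wild-type libraries), Atp5j2 (subunit f) 814 ± 598 CPM and Atp5b (the catalytic beta subunit) 814 ± 432 CPM. In complex IV, Cox7b averaged 752 ± 650 CPM, Cox6c 725 ± 422 CPM and Cox4i1 483 ± 327 CPM. In complex I the accessory subunits led: Ndufa2 at 749 ± 581 CPM, Ndufv3 at 564 ± 613 CPM and Ndufa4, which is also found with complex IV, at 396 ± 322 CPM. The SD was of the size of the mean for several of these, so their order within a complex does not hold beyond the spread.

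Of the nuclear core subunits of complex I, which carry the flavin and iron-sulphur clusters, Ndufv2 averaged 167 CPM, Ndufv1 133 CPM, Ndufs3 115 CPM, Ndufs8 89.5 CPM and Ndufs7 88.6 CPM, below the 3 accessory subunits named above. Complex II, which also belongs to the tricarboxylic acid (TCA) cycle, was the smallest group: Sdha, the flavoprotein, averaged 191 ± 126 CPM, the membrane anchor Sdhc 160 ± 129 CPM, the iron-sulphur subunit Sdhb 92.5 ± 47.7 CPM, and Sdhd, the other anchor, had 1 count in all. In complex III, the hinge protein Uqcrh averaged 480 ± 244 CPM, Uqcr10 277 ± 244 CPM and Uqcrq 256 ± 211 CPM.

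Isoform pairs were one-sided. Cox4i1 averaged 483 CPM, and the lung isoform Cox4i2 had 0 counts. Cox8a averaged 264 CPM, with 0 counts for the muscle isoform Cox8b and the testis isoform Cox8c. Cox7b had 5019 counts and the testis isoform Cox7b2 had 9, all in 1 library. The heart and muscle isoform Cox7a1 had 24 counts in 4 libraries, against mean levels of 126 CPM for Cox7a2 and 202 CPM for Cox7a2l, a factor in assembling respiratory supercomplexes. Cox6b1 averaged 330 CPM and its testis isoform Cox6b2 19.0 CPM, from 246 counts in 24 libraries. Of the 3 genes for the same mature subunit c, the proton-carrying ring of ATP synthase, Atp5g3 had 5249 counts, Atp5g1 590 and Atp5g2 160. Ndufa8 and Uqcr11 also had 0 counts, and 12 members had under 100. For members with copies elsewhere in the genome, the sources used here do not say how reads matching several places were counted, so a low or zero value is uncertain.

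The 3′ end matters for this assay, and 84 members were matched in GENCODE vM21. In the last 200 bases, 1 member shared an exon with another gene on the same strand (Cox7c) and 8 faced an exon on the opposite strand: Ndufa2, Ndufa3, Ndufa4l2, Ndufb2, Ndufb6, Uqcrc2, Cox5a and Atp5md. Whether counting used strand is not given, so the reads of these 9 members and their neighbours cannot be told apart. Among the 12 members under 100 counts, 1 had such a neighbour, and among the other 74, 8 did.

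**Figure D1:**
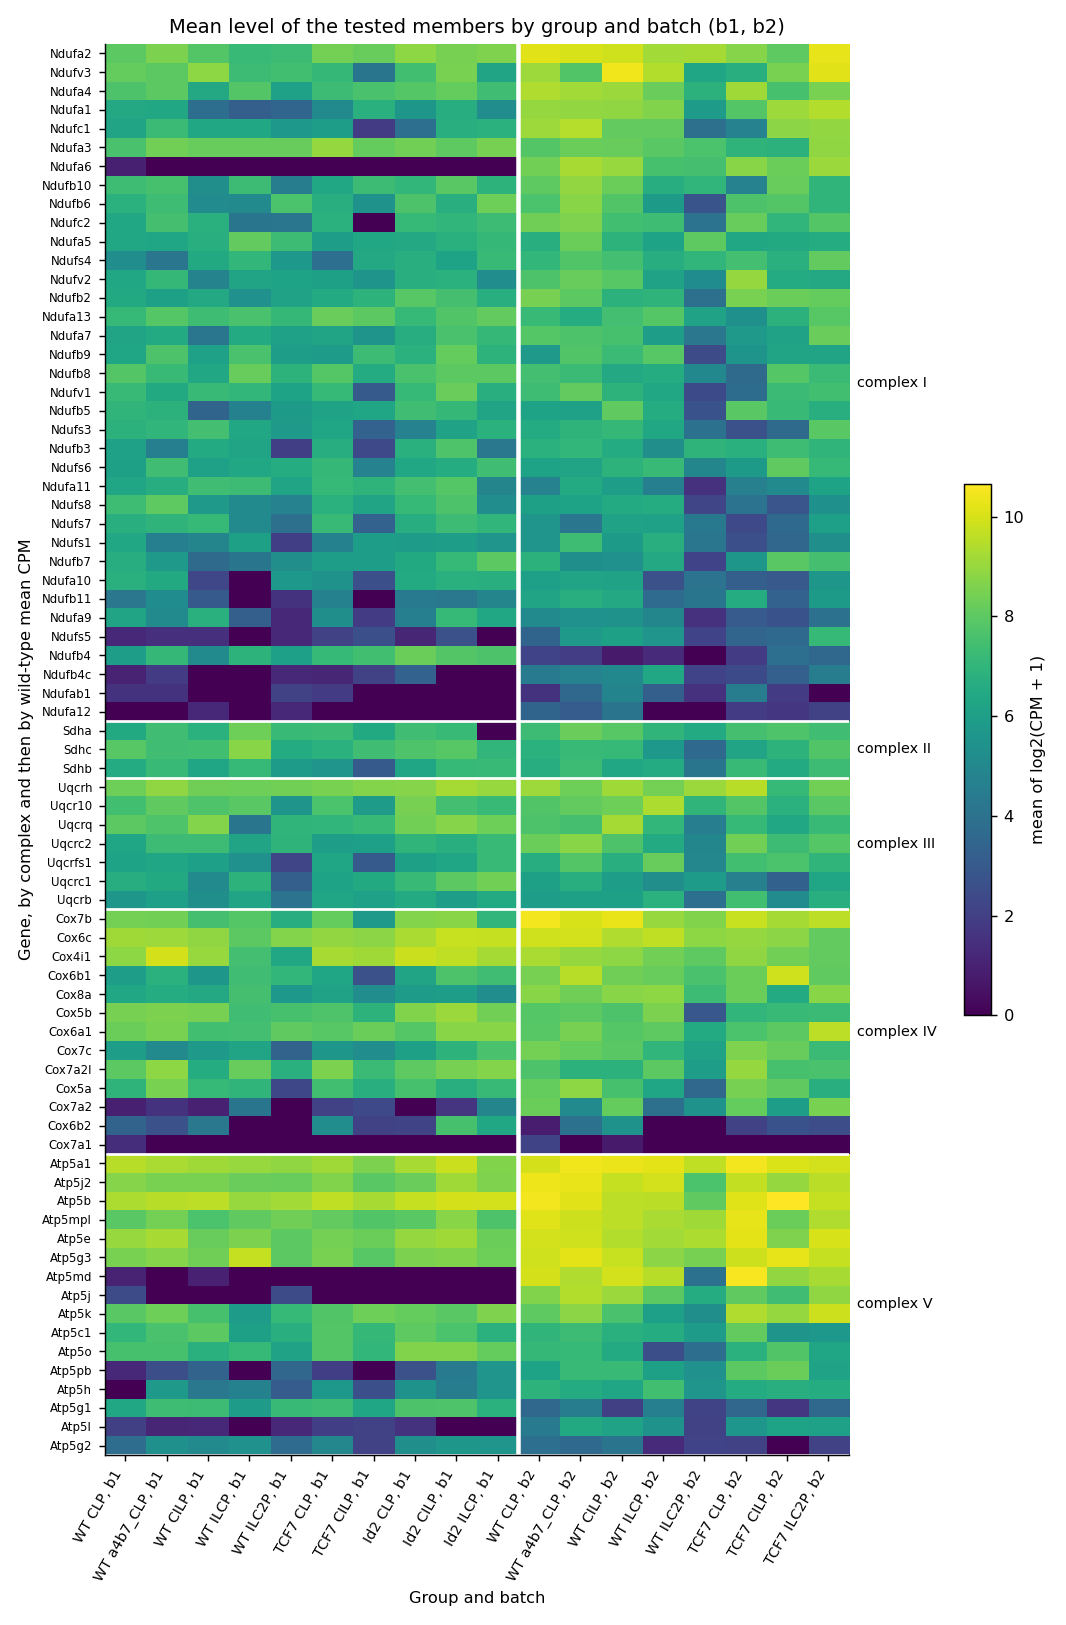
Mean of log2(CPM + 1) of the tested members (rows, by complex; 1 row is left out) in each group and batch (columns, batch 1 left of the white line). The columns of batch 1 are dark for Atp5md, Ndufa6, Atp5j and Cox7a2, and those of batch 2 for Ndufb4.

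More members differed between batches than in any comparison of groups. Of 76 tested, 31 differed between batches in edgeR's quasi-likelihood test (28 higher in batch 2 and 3 lower), against 16.3% of all genes tested, with a median log2 fold change of 0.81 against -0.04 for all genes. ATP synthase (11 of 16) and complex I (15 of 37) held most of them, complex IV held 5 of 13, and complexes II and III none. Atp5md, a small subunit at the dimer interface of ATP synthase, had 2 counts in the 22 libraries of batch 1 and 3362 in the 25 of batch 2. Ndufa6, an accessory subunit of complex I, had 1 and 1820 counts. Atp5j, the coupling factor 6 subunit, had 17 and 1839 counts, and Cox7a2 16 and 967. In the other direction, Ndufb4 fell from 529 counts in batch 1 to 20 in batch 2 (log2 -4.34 ± 0.58 SE, edgeR adjusted p = 2.16e-09), and Atp5g1 fell to 64 counts (log2 -3.06 ± 0.53 SE, edgeR adjusted p = 3.06e-06). Ndufa11 was lower in batch 2 as well. Ndufa11 was also counted in batch 2, but Atp5md, Ndufa6, Atp5j, Cox7a2 and Ndufb4 had few counts in one batch, so for them a comparison of cell types rests mainly on the other. All comparisons between groups were therefore fitted with batch as a term, and values are given by batch.

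Summed over the 86 members, the share of a library's counts was 1.30% ± 0.241 (SD, n = 22) in batch 1 and 2.07% ± 0.498 (n = 25) in batch 2. Over the 45 tested members that did not differ between batches, it was 0.851% and 0.858%, close by the way those members were picked. In WT CLP the module's share was 1.17% to 1.38% in batch 1 and 1.88% to 2.94% in batch 2. WT a4b7_CLP lay at 1.34% and 1.57% in batch 1 and 1.67% to 2.93% in batch 2, over the range of CLP. WT CILP lay at 1.19% to 1.43% and 1.41% to 2.39%. WT ILC2P lay at 0.849% to 1.09% in batch 1, below the other WT groups of that batch, and at 1.37% to 2.09% in batch 2. WT ILCP gave 1.11% in batch 1 and 1.37% and 1.83% in batch 2, where its mean (1.60%) was below that of ILC2P (1.81%).

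**Figure D2:**
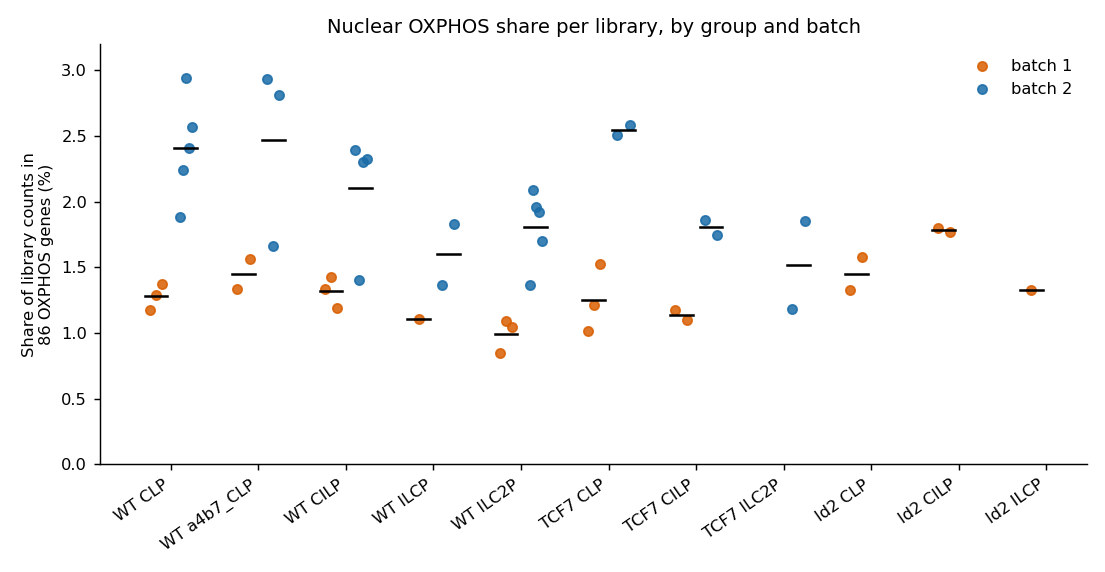
Share of each library's counts (%) in the 86 genes, by group (x axis), with batch 1 in orange, batch 2 in blue and a bar at each batch's mean. The batch 2 mean lies above the batch 1 mean in each group with both, and within batch 1 the 3 WT ILC2P libraries (0.849% to 1.09%) lie below the 3 WT CLP libraries (1.17% to 1.38%).

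In batch 1 the 3 ILC2P libraries were below all 3 CLP and all 3 CILP libraries, with differences in the mean of -0.284 and -0.323 percentage points. In batch 2 the differences were -0.603 and -0.302 points, with ranges that overlap. In batch 1 complex IV did not overlap: its share was 0.162% to 0.182% in ILC2P, against 0.256% to 0.317% in CLP and 0.258% to 0.279% in CILP. Complex V overlapped there, at 0.265% to 0.418% in ILC2P against 0.341% to 0.457% in CLP. In batch 2 the mean share of complex IV was 0.364% in ILC2P, 0.552% in CLP and 0.422% in CILP, and that of complex V 0.666%, 0.880% and 0.679%. By mean CPM, with ties counted for each group, ILC2P was the lowest of the 5 WT groups for 41 of the 76 tested members (53.9%) and for 40.2% of all genes tested. It was the highest for 1 member (1.32%) and for 14.3% of all genes. The group a4b7_CLP was the highest for 32 members (42.1%, against 23.7% of all genes) and the lowest for 1. Between the earlier groups, the pooled means differed by 0.0778 points for a4b7_CLP minus CLP, -0.216 for CILP minus CLP, -0.294 for CILP minus a4b7_CLP and -0.334 for ILCP minus CILP. In batch 1 the single ILCP library lay below all 3 CILP libraries, and in batch 2 these 2 groups overlap.

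WT ILC2P against WT CILP asked how the module changes when common ILC progenitors commit to group 2. Lower in ILC2P were 6 members, and 0 were higher. They were Atp5md, Uqcrq, Cox6b2, Ndufa9, Cox7b and Ndufv3, or 6 of 76 tested, against 5.29% of all genes tested. Complex I had 2 of 37, complex III 1 of 7, complex IV 2 of 13, complex V 1 of 16 and complex II 0 of 3. Over all 76 members the median log2 fold change was -0.72, against -0.56 for all 10972 genes. That shift depends on the scaling: the median of all genes was -0.23 with DESeq2's size factors, -0.28 with raw totals and -0.05 in DESeq2, and the median of the members lay 0.13 to 0.30 below it under all 4.

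Uqcrq, a small subunit of complex III next to cytochrome b, was between 217 and 870 CPM in WT CILP (median 517 CPM, n = 7) and between 0 and 331 CPM in WT ILC2P (median 78.0 CPM, n = 8). In batch 2 the groups do not overlap (452 to 870 CPM against 0 to 146 CPM), and in batch 1 they overlap through 1 ILC2P library at 331 CPM. The log2 fold change was -2.42 ± 0.58 (SE, edgeR adjusted p = 0.00552), or 1.87 below the median of all genes. Uqcrq was also at 16.6, 132 and 133 CPM in the 3 WT ILCP libraries, all below every CILP library, with log2 -2.49 ± 0.84 and an edgeR adjusted p of 0.206.

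Atp5md could be compared in batch 2 alone. There it was at 1590, 484, 1089 and 1088 CPM in WT CILP, and at 0, 0, 52.7, 426 and 43.9 CPM in WT ILC2P. All CILP libraries lay above all ILC2P libraries, among which replicate 4 (426 CPM) was far above the rest. The log2 fold change was -3.32 ± 0.68 (edgeR adjusted p = 0.000804), and -3.21 in batch 2 alone (adjusted p = 0.00959). Without replicate 4 of ILC2P it was -5.42 (adjusted p = 6.46e-07), and without a batch term the call was lost (adjusted p = 0.263). The exon of Taf5 that faces its 3′ end is a limit for this gene.

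Ndufa9, an accessory subunit that holds an NADPH beside the ubiquinone channel of complex I, was at 11.3 to 166 CPM in WT CILP (median 58.8 CPM). In WT ILC2P, 5 of 8 libraries had no count and the highest was at 14.2 CPM, so the groups overlap only at their edges. The log2 fold change was -3.70 ± 1.10 (edgeR adjusted p = 0.0301), and 0.0698 without the 2 WT ILC2P libraries of lowest depth, replicates 1 and 3. Ndufv3, the small flavoprotein-arm subunit, was at 338 to 3120 CPM in WT CILP (median 752 CPM) and 0 to 682 CPM in WT ILC2P (median 211 CPM). In batch 2 the groups do not overlap (716 to 3120 CPM against 0 to 682 CPM), and in batch 1 they do. Its log2 fold change was -1.97 ± 0.62 (edgeR adjusted p = 0.0472, and 0.122 without those 2 libraries). That call was lost under 7 of the 10 other settings tried, with adjusted p-values of 0.0143 to 0.470 over all 10 (0.0692 with size factors and 0.0671 with raw totals).

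Cox6b2, the testis isoform of the subunit that joins complex IV monomers, had 83 counts in 6 of 7 WT CILP libraries (0, 48.3 and 145 CPM in batch 1 and 110, 58.6, 15.7 and 34.0 CPM in batch 2). All 8 WT ILC2P libraries were at 0, as were all 3 WT ILCP libraries. Taking 3 counts over a group as the limit that 0 allows, the pooled CILP level of Cox6b2 was 8.34-fold the limit for ILC2P (edgeR adjusted p = 0.0126). It was 8.64-fold the limit for ILCP (edgeR adjusted p = 0.248, not called). Neither ratio includes the spread between libraries. Cox7b, a small structural subunit, was at 153, 380 and 109 CPM in batch 1 and 2166, 501, 1105 and 2169 CPM in batch 2 of WT CILP. In WT ILC2P it was at 118, 135 and 61.3 CPM and at 68.2, 802, 527, 781 and 453 CPM. The ranges overlap in both batches. The log2 fold change was -1.32 ± 0.42 (edgeR adjusted p = 0.0442), and this call was lost under each of the 10 other settings tried and without any 1 of 10 of the 15 libraries. Leaving out 1 library also ended the call of Ndufv3 for 8 libraries (adjusted p up to 0.105, without WT CILP replicate 3) and that of Ndufa9 for 4 (WT CILP replicates 3 and 6 and WT ILC2P replicates 6 and 7, up to 0.0566). Without WT ILC2P replicate 1, 4 members passed. By batch, 1 member passed in batch 1 alone and 1 in batch 2 alone.

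WT ILC2P against WT CLP spans the whole path. Lower were 7 members and 0 were higher, against 11.5% of all genes tested (7 of 76 members is below that share). They were Atp5md, Atp5b, Cox7b, Cox4i1, Cox5a, Ndufa9 and Ndufc1. The median log2 fold change was -0.80 for members and -0.43 for all genes. The median of all genes was -0.18, -0.17 and 0.00 with size factors, raw totals and DESeq2, and that of the members 0.31 to 0.47 below it under all 4 scalings. WT CLP and WT ILC2P also differed in cell-cycle genes (3 of 6 proliferation markers lower in ILC2P), whose part in these results was not tested.

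Complex IV contributed 3 of the 7. Cox4i1, a nuclear-encoded subunit that senses the ATP to ADP ratio, was at 628, 566 and 283 CPM in batch 1 of WT CLP against 23.5, 147 and 147 CPM in WT ILC2P, without overlap. In batch 2 it was at 288 to 1514 CPM against 158 to 395 CPM, with overlap. The log2 fold change was -1.64 ± 0.44 (edgeR adjusted p = 0.00915), and -2.25 in batch 1 alone (adjusted p = 0.000875). Cox5a, which binds Cox4 in the complex, was at 67.0 to 436 CPM in WT CLP (median 199 CPM) and had no count in 4 of 8 WT ILC2P libraries (highest 136 CPM), so the groups overlap. Its log2 fold change was -2.13 ± 0.64 (edgeR adjusted p = 0.0190). Cox7b was at 285 to 402 CPM in batch 1 of WT CLP against 61.3 to 135 CPM in WT ILC2P, and at 962 to 1903 CPM against 68.2 to 802 CPM in batch 2, without overlap in either. Its log2 fold change was -1.55 ± 0.41 (edgeR adjusted p = 0.00727).

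Among ATP synthase genes, Atp5b was at 1174 to 2050 CPM in batch 2 of WT CLP and at 171 to 395 CPM in WT ILC2P, with a wide gap. In batch 1 the ranges overlap (536 to 903 CPM against 490 to 637 CPM), and batch 1 alone gave a log2 fold change of -0.24 (edgeR adjusted p = 0.840) against -2.35 in batch 2 (adjusted p = 0.00316). The pooled value was -1.45 ± 0.37 (edgeR adjusted p = 0.00486). Atp5md in batch 2 was at 636, 606, 1160, 1734 and 1291 CPM in WT CLP, all above the highest ILC2P library (426 CPM), with log2 -3.32 ± 0.66 (edgeR adjusted p = 0.000185). Atp5c1, the central-stalk gamma subunit, shows how 1 shallow library can act. It was at 72.6 to 207 CPM in WT CLP and at 0 to 199 CPM in 7 WT ILC2P libraries, but at 1568 CPM in replicate 1. DESeq2 called it higher in ILC2P (log2 2.00, adjusted p = 0.0169) and edgeR did not (log2 0.95, adjusted p = 0.336), so that DESeq2 gave 1 member higher and 6 lower. With DESeq2's size factors in edgeR, 1 was higher and 4 were lower.

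In complex I, Ndufa9 was at 8.27 to 152 CPM in WT CLP (median 50.7 CPM), above the ILC2P median of 0 CPM but overlapping, with log2 -3.21 ± 1.07 (edgeR adjusted p = 0.0368). Ndufc1, a membrane-arm subunit, was at 355.8 to 840.5 CPM in batch 2 of WT CLP against 0 to 211 CPM in ILC2P, without overlap, and in batch 1 at 41.9 to 176 CPM against 35.3 to 73.5 CPM, with overlap. Its log2 fold change was -2.08 ± 0.69 (edgeR adjusted p = 0.0380). That call was lost under 8 of the 10 other settings tried, with adjusted p-values of 0.0308 to 0.741 over all 10 (0.0616 in DESeq2, and 0.0911 with size factors and 0.0949 with raw totals in edgeR). Without WT ILC2P replicates 1 and 3, the adjusted p-values were 0.0813 for Ndufa9, 0.0818 for Ndufc1 and 0.0729 for Cox5a, while Atp5md, Atp5b, Cox4i1 and Cox7b kept an adjusted p between 0.00589 and 0.0271. Without WT ILC2P replicate 1 alone, 7 members passed. Leaving out 1 library ended the calls of Ndufa9 and Ndufc1 for 7 libraries each, with adjusted p-values up to 0.0707 and 0.0698.

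**Figure D3:**
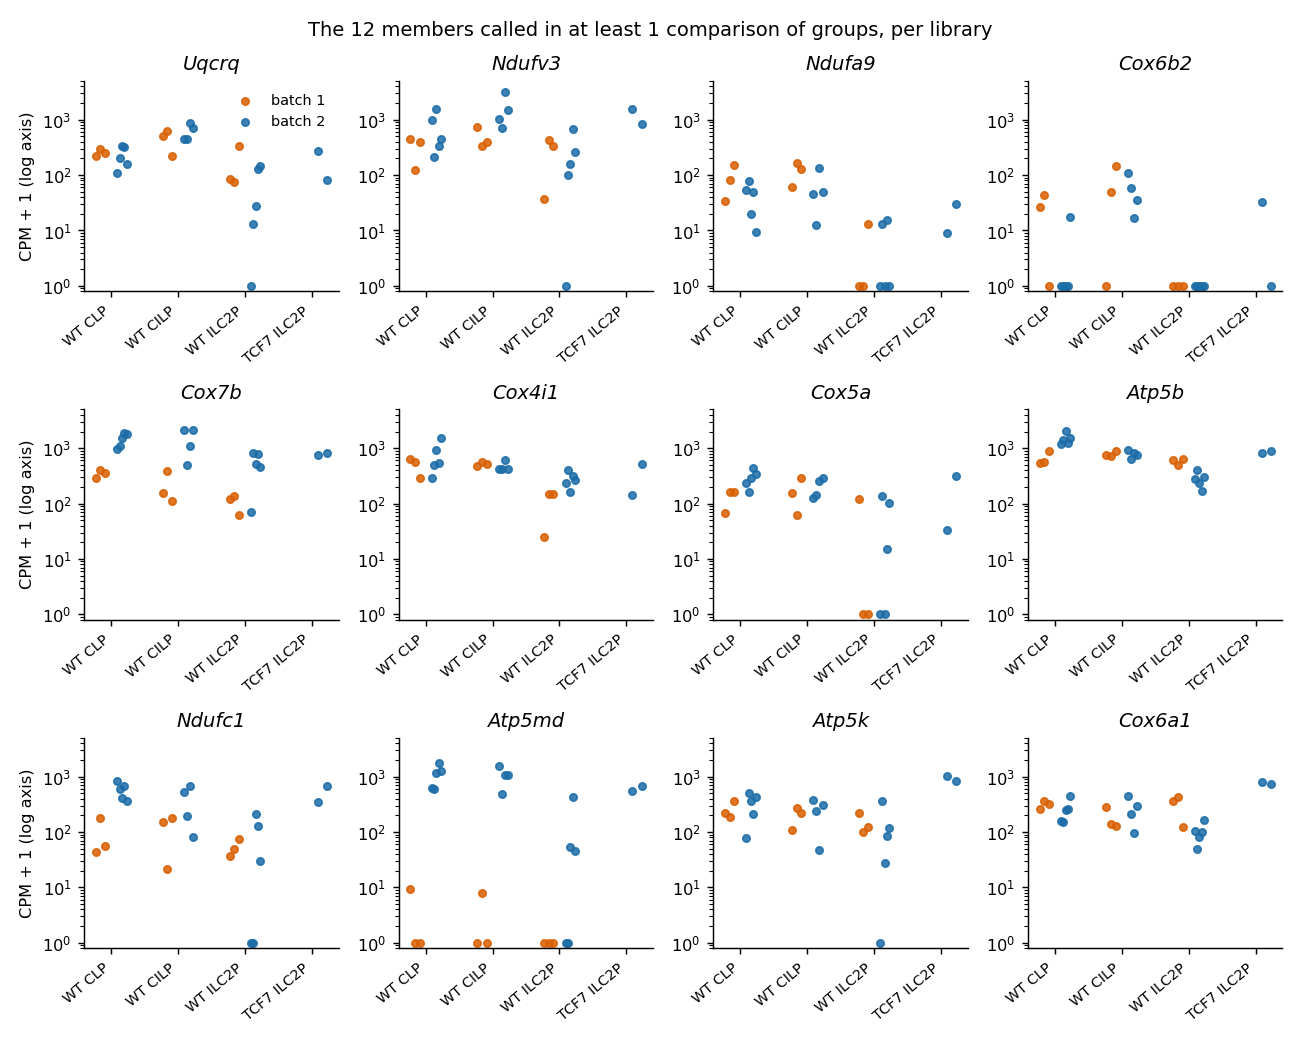
CPM + 1 (log axis) of the 12 members that differed in at least 1 comparison of groups, per library, in WT CLP, WT CILP, WT ILC2P and TCF7 ILC2P, with batch 1 in orange and batch 2 in blue. WT ILC2P lies lowest for Uqcrq, Ndufa9 and Cox6b2, Atp5md is near 0 in all of batch 1, and both TCF7 ILC2P libraries lie above all WT ILC2P libraries for Atp5k and Cox6a1. The CPM are TMM-scaled, and over raw totals Cox6a1 in TCF7 ILC2P replicate 1 falls within the WT ILC2P range.

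The earlier steps of the path gave no member that passed the test. For a4b7_CLP against CLP, 0 of 76 passed (0.0456% of all genes, 1 member at an unadjusted p under 0.05), and the median log2 fold change was 0.26 against 0.07 for all genes. For CILP against CLP, 0 passed (4.31% of all genes, 2 members at an unadjusted p under 0.05), with medians of -0.09 and 0.07. For CILP against a4b7_CLP, 0 passed (2.35% of all genes, 3 members), with medians of -0.29 and 0.01. For ILCP against CILP, 0 passed (0.374% of all genes, 4 members), with medians of -0.40 and -0.27. At an unadjusted edgeR p under 0.05 there were thus 1, 2, 3 and 4 of the 76 members in that order. The shares of all genes tested at that level were 7.56%, 16.8%, 14.3% and 10.8%. DESeq2 called 0 members in the first 3 comparisons and 1 in the last, Uqcrq.

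The members nearest the threshold at these steps were mostly in complexes III and IV. Uqcrq was at 106 to 332 CPM in WT CLP, 89.1 to 418 CPM in a4b7_CLP and 217 to 870 CPM in CILP, with log2 1.22 ± 0.54 over CLP and an edgeR adjusted p of 0.203. Together with the ILC2P values, its highest median was in CILP (517 CPM) and its lowest in ILC2P (78.0 CPM). Cox6b2 had a median of 0 CPM in CLP, 15.5 CPM in a4b7_CLP, 48.3 CPM in CILP and 0 CPM in ILCP and ILC2P, with an edgeR adjusted p of 0.181 for CILP over CLP. Ndufv3 had medians of 427 CPM in CLP, 319 CPM in a4b7_CLP and 752 CPM in CILP (log2 1.77 ± 0.71 over a4b7_CLP, edgeR adjusted p = 0.194). Cox7a2l went the other way, at a median of 202 CPM in CLP and 118 CPM in CILP (log2 -1.09 ± 0.55, edgeR adjusted p = 0.300). Cox5a and Cox6b1 were at medians of 387 and 439 CPM in a4b7_CLP, against 199 and 163 CPM in CLP (edgeR adjusted p = 0.790 and 0.820). Atp5k, the small subunit e, was at 58.2, 112 and 36.2 CPM in ILCP against a median of 236 CPM in CILP (edgeR adjusted p = 0.394).

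In TCF7 ILC2P, 2 of 76 members tested were higher than in WT ILC2P, Atp5k and Cox6a1. Of all genes tested, 2.57% differed, and 2 of 76 members is about that share, so the count is not particular to the module. Atp5k was at 1014 and 848 CPM in the 2 TCF7 ILC2P libraries. In WT ILC2P it was at 224, 98.1 and 123 CPM in batch 1 and at 0, 358, 26.4, 85.2 and 117 CPM in batch 2, so the groups do not overlap. The log2 fold change was 2.58 ± 0.69 (edgeR adjusted p = 0.0201). Cox6a1, the broadly expressed isoform of subunit 6a, was at 815 and 733 CPM, above all WT ILC2P libraries (365, 429 and 123 CPM in batch 1 and 102, 49.4, 79.1, 99.5 and 161 CPM in batch 2). Its log2 fold change was 2.29 ± 0.68 (edgeR adjusted p = 0.0441). Both TCF7 ILC2P libraries were also above every other library of the study's WT groups for these 2 genes, whose highest values were 664 CPM and 551 CPM, both in a4b7_CLP. These CPM use totals scaled by TMM factors, and TCF7 ILC2P replicate 1 had the lowest factor of the 47 libraries (0.497). The factors of WT ILC2P were 1.05 to 1.52. With raw totals the log2 fold changes were 1.84 and 1.53 (edgeR adjusted p = 0.236 and 0.314). Over raw totals, Cox6a1 in TCF7 ILC2P replicate 1 lies below the WT ILC2P library at 429 CPM, so its separation depends on the scaling. Atp5k stays above all WT ILC2P libraries over raw totals too.

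This comparison has only 2 mutant libraries, and 1 of them, replicate 1, is the library with 19.8% of plasma and B cell RNA, 0.854% of erythroid and 0.898% of myeloid marker counts. In the other, replicate 2, plasma and B cell genes were at 0.00442%, and Atp5k and Cox6a1 were at 848 and 733 CPM, still above all WT ILC2P libraries. Without replicate 1 the log2 fold changes were 2.44 and 2.21 (edgeR adjusted p = 0.215 and 0.303). Without replicate 2 they were 2.72 and 2.38 (edgeR adjusted p = 0.0723 and 0.155). In both fits the lone mutant library is assumed to vary like the other groups. Cox6a1 also missed the threshold without WT ILC2P replicate 1, 2, 3, 4 or 8 (adjusted p = 0.0522 to 0.0902). Atp5md was at 551 and 676 CPM against 0 to 426 CPM in the WT ILC2P libraries of batch 2, without overlap in TMM-scaled CPM, with log2 2.43 ± 0.75 and an edgeR adjusted p of 0.0582. Over raw totals, replicate 1 of TCF7 ILC2P lies below the WT ILC2P library at 426 CPM for this gene. The median of the members was 0.62 against 0.19 for all genes. With raw totals both fell below 0, at -0.16 and -0.37, and the members' median was higher than that of all genes by 0.21 to 0.43 under the 4 scalings. DESeq2 also called Atp5c1 lower (log2 -3.32, adjusted p = 0.04999), against the WT group that holds the library at 1568 CPM, and so gave 2 members higher and 1 lower. The module's share was 1.19% in replicate 1, below all WT ILC2P libraries of batch 2 (1.37% to 2.09%), and 1.85% in replicate 2, within their range. The total of replicate 1 includes its plasma and B cell counts (19.8%), whose part in the low share was not tested. The ILC2P marker list took 0.1995% of that total, below all WT ILC2P libraries (0.388% to 1.29%). In replicate 2 the list took 0.399%, within the WT range. How far either mutant library holds ILC2P was not tested.

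In the other cell types of the same genotype no member passed. For TCF7 CLP against WT CLP, 0 of 76 passed and 0% of all genes did (2 members at an unadjusted p under 0.05; 0 in DESeq2), with a median of -0.08 against -0.12 for all genes. For TCF7 CILP against WT CILP, 0 passed (0.501% of all genes, 4 members at an unadjusted p under 0.05; 0 in DESeq2), with a median of -0.37 against -0.32. The smallest p-values in TCF7 CILP belonged to Cox7b (log2 -1.43 ± 0.53, edgeR adjusted p = 0.266), Uqcrq (-1.88 ± 0.72, 0.291) and Ndufv3 (-1.88 ± 0.78, 0.353). Uqcrq was at 63.0 and 334 CPM in batch 1 and 39.5 and 172 CPM in batch 2 of TCF7 CILP, where batch 2 lay below all WT CILP libraries (217 to 870 CPM). These 3 were also lower in WT ILC2P than in WT CILP, but both comparisons use the same WT CILP libraries. Erythroid marker counts reached 3.68% in TCF7 CILP, against at most 0.121% in WT CILP, and myeloid marker counts were at 1.10% and 1.11% in 2 of the 4 libraries, against at most 0.156%. Of 6 proliferation markers, 1 passed, higher, with a median log2 of 3.59 over the list. The part of these in the members' values was not tested. In TCF7 CLP, Ndufb10 had log2 -1.55 ± 0.72 (edgeR adjusted p = 0.674) and Atp5pb 1.56 ± 0.93 (adjusted p = 0.826). The difference of the TCF-1 effect between ILC2P and CILP was tested directly, and 0 of 76 members passed (0.401% of all genes). Against CLP, 0 members passed as well (0.702% of all genes). Both tests also gave 0 members without either TCF7 ILC2P library or without WT ILC2P replicate 1.

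For Id2-/- mice the WT libraries of batch 1 are set beside the mutants, since all 5 mutant libraries belong to it. Id2-/- CILP had the highest share of the module in batch 1, at 1.803% and 1.772%, against 1.19%, 1.34% and 1.43% in the 3 WT CILP libraries of that batch, without overlap. Against WT CILP of that batch, complex IV (0.498% and 0.372% against 0.258% to 0.279%), complex I (0.553% and 0.634% against 0.369% to 0.484%) and complex V (0.493% and 0.555% against 0.381% to 0.419%) did not overlap either. Complexes II and III overlapped. Single genes did not pass: 0 of 76 members (0.0911% of all genes, 3 members at an unadjusted p under 0.05; 0 in DESeq2). The median log2 fold change was 0.43 for members and -0.16 for all genes, and the gap between them was 0.59 to 0.65 under the 4 scalings. Of the 76, 52 lay above 0.

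The 3 members with the smallest p in Id2-/- CILP were Cox6b1, Ndufb4 and Cox7a2l. Cox6b1 was at 139 and 308 CPM against 35.3, 89.8 and 36.2 CPM in the WT CILP libraries of batch 1 (log2 1.93 ± 0.81, edgeR adjusted p = 0.618). Ndufb4 was at 139 and 366 CPM against 23.5, 82.9 and 18.1 CPM (log2 2.36 ± 1.17, adjusted p = 0.784). Cox7a2l was at 277 and 455 CPM against 70.5, 173 and 72.5 CPM (log2 1.60 ± 0.80, adjusted p = 0.787). In each of these the mutant libraries lay above the WT libraries of the batch. Cox6b2 was also high, at 168.7 and 205.1 CPM against 0, 48.3 and 145 CPM. These 2 libraries also had less of the CILP marker list, which includes Id2 (0.0290% and 0.0356%, against 0.404% to 0.575% in WT CILP of batch 1), and more erythroid marker counts (0.181% and 0.207%, against at most 0.121%). Proliferation markers took 0.354% and 0.182% of their counts, against 0.0189% to 0.0775% in WT CILP of batch 1, with 6 of 6 above 0, a median log2 of 3.69 and 0 past the threshold (5 at an unadjusted p under 0.05). The part of these in the members' values was not tested. The transcripts of the mitochondrial genome went the other way in level, at 0.928% and 0.385% of counts against 2.83% to 4.27% in WT CILP of batch 1, with a median log2 fold change of -1.69 over 14 genes and 0 of them past the threshold. Cytosolic ribosomal proteins were at 9.872% and 10.03% of counts, against at most 7.16% in WT CILP.

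For Id2-/- CLP against WT CLP, 0 of 76 members passed (0.0365% of all genes; 0 at an unadjusted p under 0.05 and 0 in DESeq2), with a median of 0.04 against -0.08 for all genes. The share was 1.33% and 1.58% against 1.17% to 1.38% in WT CLP of batch 1, which overlap. Uqcr10, a small subunit of complex III, was at 279 and 447 CPM against 159 to 185 CPM in batch 1 (log2 1.25, edgeR adjusted p = 1). Atp5j and Cox7a2 had no count in either mutant library, but in the WT CLP libraries of batch 1 they were at 8.38, 18.3 and 0 CPM and at 0, 6.08 and 0 CPM, too few counts to compare (edgeR adjusted p = 1 for both). The single Id2-/- ILCP library had a share of 1.32%, against 1.11% in the single WT ILCP library of batch 1, with no replicate check. The difference of the Id2 effect between CILP and CLP gave 0 members (0.0365% of all genes).

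**Figure D4:**
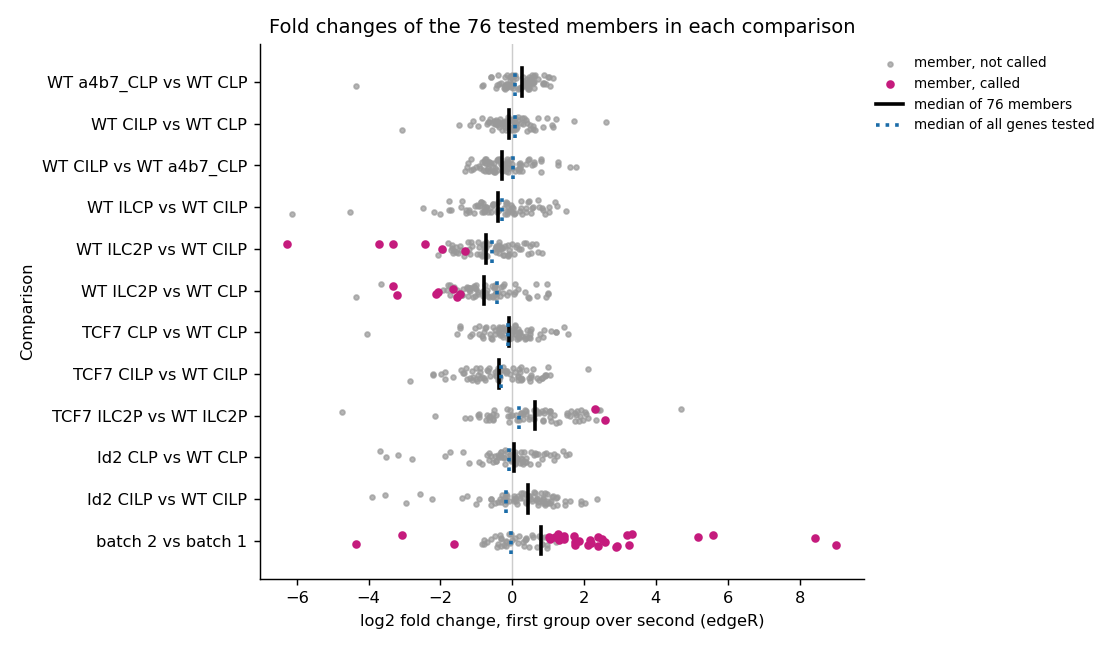
log2 fold change (x axis, edgeR) of each of the 76 tested members in the 11 comparisons of groups (rows), with called members in magenta, the members' median as a black bar and the median of all genes as a dotted blue bar. The members' median is below that of all genes in ILC2P against CLP (-0.80 and -0.43) and above it in Id2-/- CILP (0.43 and -0.16).

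Genes around the complexes were read from lists beside the members. In WT ILC2P against WT CILP, 0 of 44 assembly factors, 0 of 72 mitochondrial ribosomal proteins and 0 of 14 transcripts of the mitochondrial genome passed. Atpif1, the inhibitor of ATP synthase (log2 -3.21 ± 0.59, edgeR adjusted p = 0.000120), and Slc25a5, the ADP/ATP carrier (-1.81 ± 0.51, adjusted p = 0.0236), fell, as 2 of 7 carriers. Fh1, fumarate hydratase, fell as 1 of 15 TCA cycle genes (log2 -2.36 ± 0.68, adjusted p = 0.0254). In glycolysis 3 of 17 fell: Pkm (log2 -3.13, adjusted p = 6.42e-05), Hk2 (-4.98, 0.0153) and Tpi1 (-2.69, 0.0426). Against WT CLP, Atpif1, Slc25a5, Fh1 and Tpi1 were again lower, along with 2 of the 11 genes on the biogenesis list. These were the coactivator Pprc1 (log2 -3.50, edgeR adjusted p = 0.0354) and Tfb1m (-5.19, 0.0410). Without WT ILC2P replicate 1, Tpi1 missed the threshold against CILP (edgeR adjusted p = 0.0570), as did Pprc1 (0.0538) and Tfb1m (0.0646) against CLP. In TCF7 ILC2P, Ogdh (log2 3.29, adjusted p = 0.00949) and Pkm (2.72, 0.0180) rose. Without replicate 1 of TCF7 ILC2P, the edgeR adjusted p was 0.0353 for Ogdh and 0.0761 for Pkm, and without replicate 2 it was 0.179 and 0.210. In CILP against CLP, Pkm (log2 1.85, adjusted p = 0.0209) and the assembly factor Coa4 (4.51, 0.0458) rose.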

How the data were processed

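CEL-seq libraries of 100 sorted mouse bone marrow cells were analysed. Per the file headers, the authors deposited 1 table for each batch, with raw counts of reads for genes identified by Entrez number. The submitters' processing notes name CASAVA 1.8.2, featureCounts, limma, edgeR 3.8.2 and 3.22.0, and the build mm10, with no role or order. The headers of batch 1 show trimmed reads. The aligner, the counting strand and molecular identifiers are not given in the sources used here, so intervals and limits cover counting error only. Symbols came from RefSeq (GRCm38.p6), and 25275 identifiers (93.0%) matched. A total of 0 value columns were left without a sample.

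Of 70 samples, 4 technical repeats were summed into their parents. The 12 control wells, 6 Nfil libraries (unused by the submitters) and 1 WT CILP library that they call an outlier stayed out, which left 47 libraries. Genes were filtered with filterByExpr (minimum count 10, minimum total 15), and 10972 of 27179 were tested in 1 edgeR quasi-likelihood fit (edgeR 4.0.16, R 4.3.3) over all groups, with batch as a term, TMM factors of 0.497 to 1.52, 35 residual degrees of freedom and a biological coefficient of variation of 110%. The threshold to pass (be called) was 0.05 for the p-value adjusted by Benjamini-Hochberg over all genes. DESeq2 1.42.0, other scalings, no filter, no batch term, single batches, fewer groups, left-out libraries and the outlier put back were alternatives. The scripts were tested on simulated data.

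Named are members that passed, the 3 highest in WT per complex, the 3 with the smallest p per comparison, isoform pairs, the nuclear core of complex I and complex II, and genes that passed on other lists; 1 member is not reported here. Cox6b2, Uqcrq and Atp5c1 were also followed through further groups after their values were seen. The members and lists were chosen with earlier results of these data known.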

Additional observations from a re-analysis of the deposited data

Results flagged for a closer look

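Within groups of 4 to 8 libraries, single libraries stood far from the rest in 9 of 107 groups of values. Chance gives about 1 in 20 only for normally distributed values from 1 population. These values were not log-transformed and were pooled over both batches, so 9 of 107 cannot be read as an excess. Each of the 9 is given with the value nearest to it.

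For module shares, the complex II share of WT ILC2P replicate 1 was 0.129%, and the next highest of 8 was 0.0512%. The complex III share of WT a4b7_CLP replicate 1 was 0.227%, and the next of 5 was 0.147%.

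Among single members in wild-type groups, Atp5md was at 426 CPM in WT ILC2P replicate 4 (next 52.7 CPM, n = 8), and Uqcrq at 331 CPM in WT ILC2P replicate 8 (next 146 CPM, n = 8). Ndufv3 was at 3120 CPM in WT CILP replicate 3 (next 1516 CPM, n = 7), and Cox5a at 711 CPM in WT a4b7_CLP replicate 1 (next 407 CPM, n = 5).

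In the TCF7 groups, Cox4i1 was at 949 CPM in TCF7 CILP replicate 4 (next 379 CPM, n = 4), and Cox5a at 582 CPM in TCF7 CILP replicate 2 (next 141 CPM, n = 4). Ndufc1 was at 696 CPM in TCF7 CLP replicate 1 (next 65.9 CPM, n = 5).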

How the results depend on the processing

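No paired analysis was possible because replicate numbers were given in accession order and the table columns carry none. Depth limits the zeros: WT ILC2P libraries hold 19322 to 80873 counts, and a member at 0 in 8 of them may still be present below 3 counts over the group. No log2 fold change of a member that passed changed direction under any alternative that gave a value for it. Members named for a small p that did not pass were checked in single batches alone, where none with a value changed direction. Other named members, Atp5c1 among them, were not checked for direction. Differences of the module's share, which carry no test, did: a4b7_CLP minus CLP (0.0778 points) was -0.140 without WT a4b7_CLP replicate 1, CILP minus CLP (-0.216) was 0.0385 in batch 1 alone, TCF7 CLP minus WT CLP (-0.216) was 0.139 in batch 2 alone, TCF7 ILC2P minus WT ILC2P (0.0161) was -0.288 in batch 2 alone and -0.316 without TCF7 ILC2P replicate 2, and Id2-/- CILP minus WT CILP (0.0190) was -0.133 over TMM-scaled totals. Counts of members that passed, over the settings where they moved by more than 1.5 times, were as follows. For CILP against CLP and CILP against a4b7_CLP (0 each), the compared groups alone gave 1, and for ILCP against CILP (0) DESeq2 gave 1. For ILC2P against CILP (6), batch 1 alone gave 1, batch 2 alone 1, leaving out the low-depth libraries 3, and the compared groups alone 1, and leaving out 1 library at a time gave 3 to 6, the lowest without WT CILP replicate 3. For ILC2P against CLP (7), batch 1 alone gave 1, batch 2 alone 3, no batch term 4 and the compared groups alone 2, and leaving out 1 library gave 6 to 10. For TCF7 ILC2P (2), size factors gave 1, no batch term 1, the outlier put back 1, and raw totals, no filter, batch 2 alone, the compared groups alone and leaving out the low-depth libraries 0. Leaving out 1 library there gave 0 to 2, with 0 without either mutant library and 1 without WT ILC2P replicate 1, 3 or 8. The count between batches (31) was 30 to 36. For the module's share, TCF7 ILC2P minus WT ILC2P (0.0161 points) was 1.06 points over TMM-scaled totals. TMM factors were 0.497 and 0.839 in TCF7 ILC2P, against 1.05 to 1.52 in WT ILC2P. Id2-/- CLP minus WT CLP (-0.532 points) was 0.174 points in batch 1 alone, also a change of direction. The pooled value sets mutants of batch 1 against WT CLP of both batches, whose means were 1.28% in batch 1 and 2.41% in batch 2. The cause of these shifts was not tested, except that single batches, the compared groups alone and left-out libraries hold fewer libraries. The alternatives with a single batch, with raw totals and over members that did not differ between batches, the batch contrast itself, and the interactions and other lists without single libraries were chosen after seeing the data. A batch 1 fit of TCF7 ILC2P and batch 2 fits of the Id2-/- groups were not run, since those batches hold no such library.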

Other observations

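The libraries kept out of the comparisons also hold the module. The Nfil CLP libraries had shares of 2.58% and 2.25%, inside the range of WT CLP in the same batch, and the Nfil ILC2P libraries had 2.18% and 1.39%. One Nfil CILP library was at 0.289% with 31.8% of its counts from the mitochondrial genome, and the other held 296 counts in all. The WT CILP library that the submitters call an outlier had a share of 0.847% over 47089 counts, below all 7 WT CILP libraries (lowest 1.19%).

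The technical repeats give a view of the technical error. The 3 samples of WT CLP replicate 2 had shares of 2.23%, 2.36% and 2.21%, with 95% Wilson intervals that overlap. Those of WT CILP replicate 1 had 2.30%, 2.17% and 2.86%, and the interval of the last (2.74% to 2.98%) does not meet the others. The 12 control wells, which should hold spike-in RNA alone, had 0 to 81 counts in the members (median 4, and 0 in 6 of them), against 264 to 8786 in the 47 libraries.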
